A study of Rattus norvegicus with 6 samples.

Results

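Iron, zinc and copper are handled in cells by dedicated importers, exporters, storage proteins and sensors, and 49 of the 17093 genes in the deposited tables were described here as such genes. The members were chosen by symbol: every zinc exporter (Slc30a family), zinc importer (Slc39a family), copper transporter (Slc31a family), ferroportin (Slc40a family) and Slc11a metal transporter, together with named genes of iron uptake, ferritin, heme breakdown, copper export and metallothionein. No measured value entered that rule, although the members were chosen with earlier results of these data known. Of the 49, 40 were at 1 or above in 3 or more libraries and were tested, and 9 did not. Mt1a, also named in the rule, has no row under that symbol. A row named Mt1, for which the reference table lists Mt1a as a synonym, is given beside the members and not counted among them.

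RNA was sequenced from primary cells of the nucleus pulposus, the soft centre of an intervertebral disc, grown from male rats and used at passages 3 to 6. Serum starvation, that is 48 h in medium with 0% fetal bovine serum, was applied in 3 libraries, and the 3 control libraries came from cells kept in 10% serum for the same time. The treatment text in the labels describes medium without serum for the controls too, so the groups follow the titles and the series design. Ribosomal RNA was depleted before library construction. Whether replicates were separate rats or dishes is not in the labels; the p-values thus speak only of the spread among these 6 libraries, and that spread may be technical. Values are treated as FPKM, fragments scaled by gene length and library total, which allows levels of different genes to be set side by side.

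Iron enters most cells bound to transferrin through the transferrin receptor, is reduced in endosomes by STEAP enzymes, carried into the cytosol by DMT1 and stored in ferritin, a shell of heavy and light chains. Ferroportin is the exporter of ferrous iron, which the copper-containing ferroxidases ceruloplasmin and hephaestin oxidise outside the cell. Zinc is moved into the cytosol by ZIP (Slc39a) and out of it by most ZnT (Slc30a) proteins. Excess zinc is bound by metallothioneins, small cysteine-rich proteins induced through the zinc-sensing factor MTF1. Copper enters through CTR1, is passed on by the chaperone ATOX1 and is pumped into the secretory pathway by the ATPase ATP7A. In disc and other connective tissue that pathway supplies lysyl oxidases, the copper enzymes that crosslink collagen and elastin.

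Serum-starved cells had far more mRNA of ceruloplasmin than control cells. They had less of the transferrin receptor, heme oxygenase 1, the STEAP family gene Steap1 and the zinc importer Slc39a10. The zinc exporter Slc30a1, the importers Slc39a8 and Slc39a1, the metallothionein Mt2A and the copper genes Slc31a2 and Atp7a were higher. In all, 14 members rose and 13 fell, and 13 did not pass the test, limma on log2(value + 1) with Benjamini-Hochberg adjustment and a threshold of 0.05. The share of tested members that changed, 67.5%, was close to the background, since 61.1% of all 11493 tested genes changed, 31.7% upward and 29.4% downward. The groups did not overlap for 31 of the 40 tested members, against 68.2% of all tested genes. The median log2 fold change was -0.01 over the tested members and 0.03 over all tested genes. The count of changed members is therefore not a result about metal handling, and the members are described one by one.

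**Figure D1:**
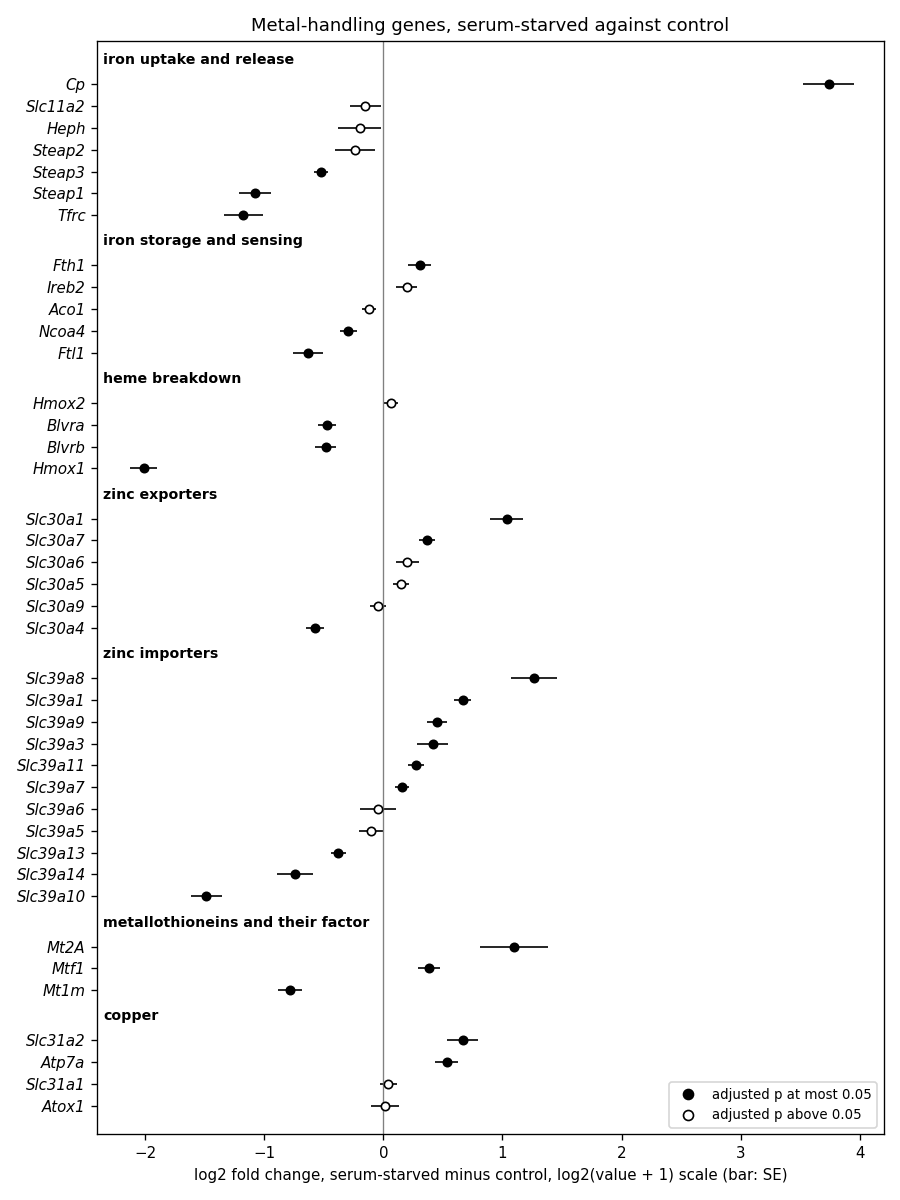
Log2 fold change (serum-starved minus control, log2(value + 1) scale, x axis) of the 40 tested members, grouped by role, with standard errors as bars; filled points passed the adjusted p of 0.05 and open points did not. Cp stands far to the right at 3.74, and Hmox1 is farthest to the left at -2.01.

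Library totals of the deposited values were 447788 to 473452 for serum-starved and 522165 to 530095 for control cells, and the depth in reads is unknown. Scaling every library to the same total shifted the median of all tested genes by 0.18 on the log2 scale. With that scaling 19 members rose and 12 fell, and 69.5% of all called genes were higher, against 51.8% without it. Of the nucleus pulposus markers, 11 of 13 symbols were matched and 8 tested, of which 7 fell and 1 rose, with a summed level of 170 to 189 in serum-starved and 467 to 529 in control libraries, most of it Cd44 and Slc2a1. The marker that rose was Car3, a carbonic anhydrase gene, with 25.6, 25.7 and 27.1 FPKM in serum-starved and 1.12, 1.19 and 0.78 FPKM in control cells. Acan, which encodes the disc proteoglycan aggrecan, was at 3.27, 2.67 and 3.22 FPKM in serum-starved and 82.6, 102.75 and 47.2 FPKM in control cells. Col2a1, which encodes the cartilage collagen chain, stayed at or below 0.06 in every library, and Krt18 was listed at 0 throughout. Macrophage markers summed to 2.94 to 4.17 in serum-starved and 1.69 to 2.54 in control libraries, nearly all of it Cd68, with Cd163 at 0 in every library. Endothelial markers summed to 0.55 to 0.72 in serum-starved and 0.49 to 1.06 in control libraries, and Alas2, the 1 matched erythroid marker, was at most 0.03. The part of these markers in the results on metal genes was not tested. In RNA of a whole culture, fewer cells of a type and less RNA per cell cannot be told apart.

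Among the genes of iron uptake and release, 1 of 7 tested rose, 3 fell and 3 did not pass. Cp (gene ID 24268), which encodes the ferroxidase ceruloplasmin, had 71.1, 95.1 and 80.3 FPKM in serum-starved replicates 1 to 3, against 4.24, 4.03 and 7.98 FPKM in the controls. All starved libraries lay far above all controls, and replicate 3 was the highest of the controls. The level was 15.2-fold higher, with a log2 fold change of 3.74 ± 0.21 (SE; limma, Benjamini-Hochberg adjusted p = 2.71e-06). Without control replicate 3 the log2 fold change was 4.01. Heph, the membrane-bound ferroxidase hephaestin, did not share this pattern, with 1.58, 1.38 and 1.72 FPKM in serum-starved and 2.14, 2.69 and 1.18 FPKM in control libraries. These groups overlapped, and the log2 fold change was -0.20 ± 0.18 (limma, Benjamini-Hochberg adjusted p = 0.368), or -0.41 with an adjusted p of 0.0214 by limma without control replicate 3.

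Slc40a1 (gene ID 170840), the only known cellular iron exporter, was low, at 2.16, 2.50 and 0.38 FPKM in serum-starved and 0, 0.16 and 0.14 FPKM in control cells. The groups did not overlap, but serum-starved replicate 3 stood close to the controls, and the gene was below the filter. With no filter its log2 fold change was 1.18 (limma, Benjamini-Hochberg adjusted p = 0.0286). Tfrc (gene ID 64678), the transferrin receptor, fell to 7.05, 7.51 and 5.69 FPKM in serum-starved cells, against 21.3, 13.3 and 15.5 FPKM in control cells. It was 2.48-fold lower, with no overlap and a log2 fold change of -1.18 ± 0.16 (limma, Benjamini-Hochberg adjusted p = 0.000385). Its ligand Tf was at 0.19 or below in every library.

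The STEAP genes among the members, of a family that includes reductases of ferric iron and cupric copper, were lower on average. Not all passed the test. Steap1 (gene ID 297738) had 28.6, 32.2 and 35.1 FPKM in serum-starved and 62.4, 60.3 and 84.6 FPKM in control libraries. That was a 2.16-fold lower level without overlap, and the log2 fold change was -1.08 ± 0.13 (limma, Benjamini-Hochberg adjusted p = 0.0001975). Steap3, the endosomal ferrireductase known from red cell precursors, also fell, to 26.7, 25.75 and 25.1 FPKM in serum-starved against 38.4, 37.0 and 37.3 FPKM in control libraries (log2 fold change -0.52 ± 0.06; limma, Benjamini-Hochberg adjusted p = 0.000126). Steap2 ranged from 50.2 to 71.4 FPKM in serum-starved and from 59.6 to 90.8 FPKM in control cells, with overlapping groups (log2 fold change -0.24 ± 0.17; limma, Benjamini-Hochberg adjusted p = 0.255). Steap1 and Steap2 are neighbours on the rat genome, with 0 protein-coding genes starting between them in the GRCr8 table. The ratio of Steap1 to Steap2 within a library was 0.570, 0.451 and 0.578 in serum-starved and 0.944, 1.01 and 0.931 in control libraries. An exact two-sided permutation test of this ratio, which was chosen after its values were seen, gave p = 0.1, the smallest that 3 libraries against 3 can give.

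Slc11a2, which encodes the divalent metal transporter DMT1, had 12.8, 14.0 and 12.6 FPKM in serum-starved and 15.35, 11.7 and 17.6 FPKM in control cells. These groups overlapped, and the log2 fold change was -0.15 ± 0.13 (limma, Benjamini-Hochberg adjusted p = 0.348). Without control replicate 2 it was -0.30 with an adjusted p of 0.0307 by limma, and with equal library totals it was 0.03. Slc11a1, the relative known from macrophage phagosomes, was at 0.10 or below everywhere.

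Of the 5 iron storage and sensing genes, all tested, 1 rose, 2 fell and 2 did not pass. Ferritin was among the most abundant messages of these cells: by mean level over all libraries, Ftl1 ranked 2 and Fth1 ranked 9 among the 17093 genes. The light chain gene Ftl1 (gene ID 29292) had 4091, 3638 and 3291 FPKM in serum-starved and 6258, 6034 and 4856 FPKM in control cells. It was lower in every starved library, by 1.56-fold on average (log2 fold change -0.63 ± 0.13; limma, Benjamini-Hochberg adjusted p = 0.00277), and the log2 fold change was -0.30 after quantile normalization. The heavy chain gene Fth1 (gene ID 25319), whose product carries the ferroxidase site, had 3474, 3569.7 and 3171 FPKM in serum-starved and 2662, 2571 and 3049 FPKM in control cells. It was higher in every starved library, with control replicate 3 closest to them. The log2 fold change was 0.30 ± 0.10 (limma, Benjamini-Hochberg adjusted p = 0.02365), and this call was lost without serum-starved replicate 2, control replicate 1 or control replicate 2, with adjusted p between 0.0548 and 0.0868 by limma, and with no filter on low values, with 0.113.

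The chains thus moved in opposite directions. The ratio of Fth1 to Ftl1 within a library was 0.849, 0.981 and 0.964 in serum-starved cells and 0.425, 0.426 and 0.628 in control cells. Their means were 0.931 ± 0.0716 and 0.493 ± 0.117 (SD, n = 3 each; exact two-sided permutation p = 0.1, the smallest possible). With Fth1 above and Ftl1 below all controls in every starved library, the ratios could not overlap. The pair was also chosen after the values were seen, so this p adds no support. Multiplying a library by 1 factor cannot change such a ratio. The sum of both chains was 7566, 7208 and 6462 FPKM in serum-starved and 8920.5, 8605 and 7905 FPKM in control cells. As a share of all values in a library it was 1.598%, 1.61% and 1.42% in serum-starved and 1.71%, 1.62% and 1.51% in control cells, and these shares overlapped. Both chains have near-identical copies in the rat genome, so their values are uncertain: the GRCr8 table names 21 copies of Ftl1, of which 0 have a row in the files, and 6 of Fth1, of which 1 has a row, at a level near 1 FPKM. Reads from the unlisted copies may be counted in the parent genes or dropped.

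Ncoa4, the receptor that delivers ferritin to autophagosomes, had 32.4, 30.2 and 29.3 FPKM in serum-starved and 37.4, 35.8 and 40.1 FPKM in control cells (log2 fold change -0.29 ± 0.07; limma, Benjamini-Hochberg adjusted p = 0.00668). With equal library totals that value was -0.11, with an adjusted p of 0.1999 by limma. The iron-regulatory proteins, which bind iron-responsive elements in ferritin and transferrin receptor mRNA, showed small differences that did not pass. Ireb2 had 13.2, 13.4 and 13.3 FPKM in serum-starved and 12.7, 11.6 and 10.1 FPKM in control cells (limma, Benjamini-Hochberg adjusted p = 0.0797). It passed without control replicate 1 (0.27, adjusted p = 0.0277 by limma) and with equal totals (0.38, adjusted p = 0.00596 by limma). Aco1 lay between 20.35 and 21.4 FPKM in serum-starved and between 22.4 and 23.0 FPKM in control cells, and its log2 fold change was -0.12 (limma, Benjamini-Hochberg adjusted p = 0.117) but 0.07 with equal library totals and -0.16, with an adjusted p of 0.0425 by limma, after median-ratio scaling.

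Heme breakdown releases iron: heme oxygenase opens heme to biliverdin, and biliverdin reductase A, encoded by Blvra, makes bilirubin from it. Among these 4 genes, falls were called for 3 and a rise for 0, and 1 did not pass. Hmox1 (gene ID 24451), the inducible heme oxygenase, had 40.1, 47.8 and 34.7 FPKM in serum-starved and 157, 181 and 161 FPKM in control cells. The groups lay far apart, and the log2 fold change was -2.01 ± 0.11 (limma, Benjamini-Hochberg adjusted p = 2.61e-06). The constitutive Hmox2 had 19.6, 17.9 and 19.55 FPKM in serum-starved and 17.9, 18.6 and 18.0 FPKM in control cells, with a log2 fold change of 0.06 ± 0.07 (limma, Benjamini-Hochberg adjusted p = 0.448). It passed with equal library totals, at 0.24 (limma, adjusted p = 0.00869). In control cells Hmox1 was thus several times the level of Hmox2, while in serum-starved cells the levels were closer. Blvra and Blvrb fell by a similar amount. Blvra had 13.6, 12.6 and 12.2 FPKM in serum-starved and 19.15, 17.95 and 17.4 FPKM in control cells (limma, Benjamini-Hochberg adjusted p = 0.000661). Blvrb had 39.85, 31.6 and 35.6 FPKM in serum-starved and 50.95, 52.5 and 47.1 FPKM in control cells (limma, Benjamini-Hochberg adjusted p = 0.0019).

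**Figure D2:**
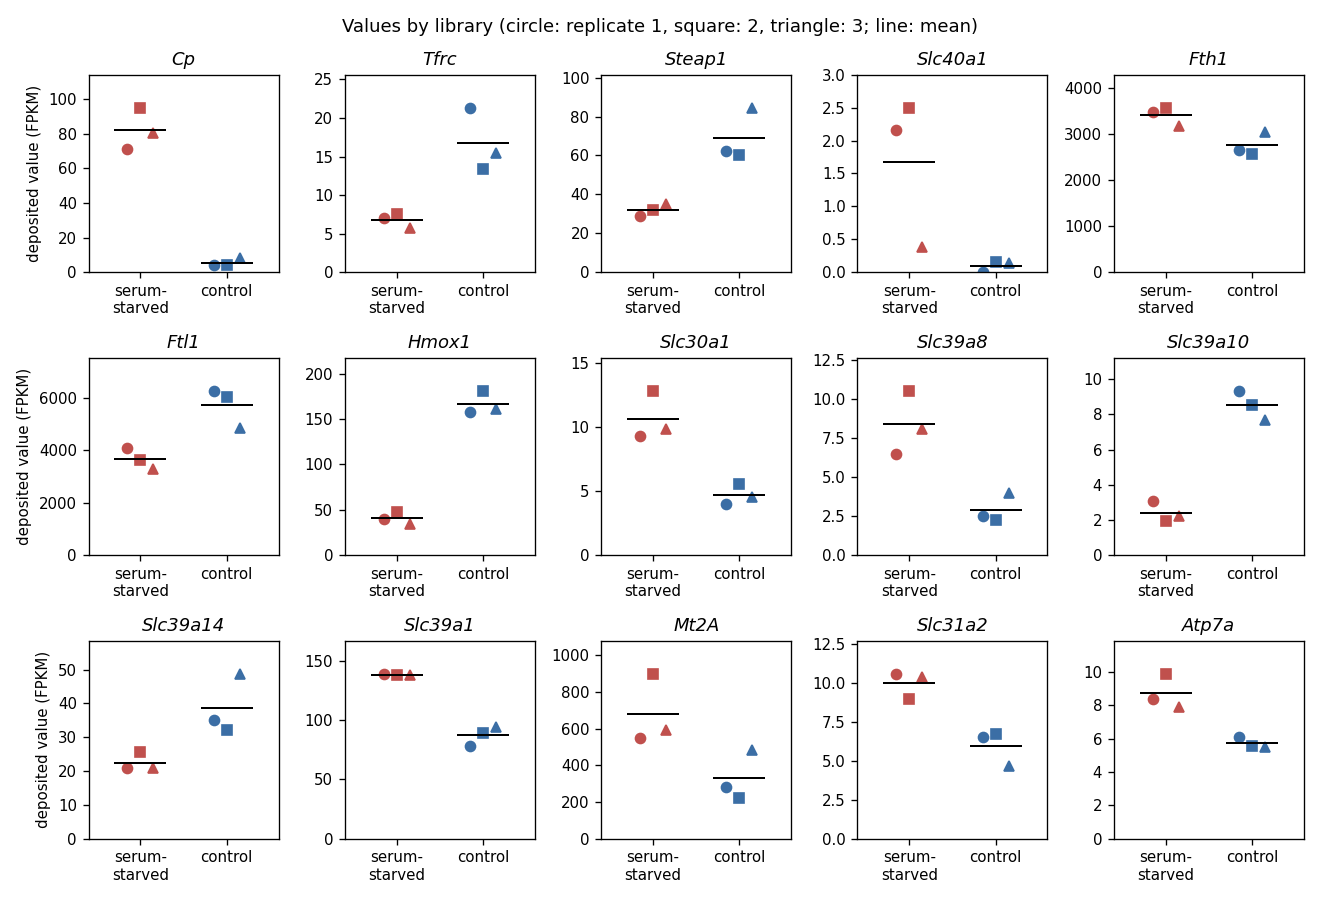
Deposited value (FPKM, y axis from 0) in each of the 3 serum-starved and 3 control libraries for 15 members; marker shapes give the replicate number and lines the group means. Only members whose groups do not overlap are drawn, so the lack of overlap follows from the choice of panels. Slc11a2 and Slc31a1, whose groups overlap, are not shown. The groups were apart for 31 of the 40 tested members and for 68.2% of all tested genes. Cp was far higher and Hmox1, Tfrc and Slc39a10 far lower in serum-starved cells.

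Beyond the members, 31 further iron and heme genes had a row, of which 24 were tested: 8 rose, 8 fell and 8 did not pass. On the log2(value + 1) scale the largest differences were those of Lcn2, Bmp6, Pcbp3 and Slc25a37, while by group means Flvcr2 was 2.29-fold lower, against 2.10-fold for Slc25a37. Lcn2, lipocalin 2, a secreted protein that binds iron-carrying siderophores, had 255, 499 and 265 FPKM in serum-starved and 27.3, 37.9 and 205 FPKM in control cells. Control replicate 3 thus reached close to the starved libraries, and the log2 fold change was 2.41 ± 0.66 (limma, Benjamini-Hochberg adjusted p = 0.0123), or 3.29 without that library. Bmp6, known in liver as the signal that induces hepcidin, had 37.4, 34.1 and 29.7 FPKM in serum-starved and 5.37, 5.40 and 13.5 FPKM in control cells (log2 fold change 2.04 ± 0.29; limma, Benjamini-Hochberg adjusted p = 0.000414). Here too control replicate 3 was the highest control. Slc25a37, mitoferrin 1, which carries iron into mitochondria, fell to 10.65, 10.0 and 8.17 FPKM in serum-starved against 22.3, 17.3 and 20.95 FPKM in control cells (limma, Benjamini-Hochberg adjusted p = 0.000174). Pcbp3, of the poly(C)-binding protein family that includes iron chaperones, was at 1.55 to 1.74 FPKM in serum-starved and 4.41 to 4.80 FPKM in control cells (limma, Benjamini-Hochberg adjusted p = 1.52e-05).

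Most zinc exporters of the Slc30a family lower cytosolic zinc by moving it out of the cell or into organelles. The family had 6 tested members, of which 2 rose, 1 fell and 3 did not pass. Slc30a1 (gene ID 58976), the exporter of the plasma membrane, had 9.28, 12.8 and 9.88 FPKM in serum-starved and 3.97, 5.57 and 4.51 FPKM in control cells. Every starved library was above every control, by 2.28-fold on average (log2 fold change 1.03 ± 0.14; limma, Benjamini-Hochberg adjusted p = 0.000335). Slc30a7, which loads the Golgi, rose to 22.55, 22.6 and 21.7 FPKM in serum-starved against 17.1, 17.9 and 16.2 FPKM in control cells (log2 fold change 0.37 ± 0.07; limma, Benjamini-Hochberg adjusted p = 0.00156). Slc30a4, an exporter of endosomal and other vesicles, fell to 20.4, 20.4 and 19.9 FPKM in serum-starved against 33.2, 30.8 and 28.1 FPKM in control cells (log2 fold change -0.57 ± 0.07; limma, Benjamini-Hochberg adjusted p = 0.0002635).

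Slc30a5 and Slc30a6, which form a heteromer in the early secretory pathway, did not pass, with log2 fold changes of 0.15 and 0.20 and limma Benjamini-Hochberg adjusted p of 0.0779 and 0.0991. Both passed with equal library totals, where 5 exporters changed, at 0.33 and 0.38 (limma, adjusted p = 0.00263 and 0.00709), and Slc30a5 also after quantile normalization (0.23, adjusted p = 0.0125 by limma). Slc30a9 had 31.1 to 33.3 FPKM in serum-starved and 31.2 to 34.7 FPKM in control cells and did not pass (limma, Benjamini-Hochberg adjusted p = 0.597). Slc30a2, Slc30a3 and Slc30a8 were at 0.20 FPKM or below in serum-starved cells and listed at 0 in all controls. In control cells Slc30a9 and Slc30a4 were the highest exporters, with overlapping values, and in serum-starved cells Slc30a9 alone was, with no overlap with the next.

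Of the 11 zinc importers tested, 6 rose, 3 fell and 2 did not pass. Slc39a8 (gene ID 295455), ZIP8, which also carries manganese and iron, had 6.51, 10.54 and 8.12 FPKM in serum-starved and 2.50, 2.26 and 3.98 FPKM in control cells. It was 2.88-fold higher without overlap, and control replicate 3 was the highest control (log2 fold change 1.27 ± 0.20; limma, Benjamini-Hochberg adjusted p = 0.000678). Its closest relative in function, Slc39a14 or ZIP14, moved the other way, with 21.0, 25.5 and 20.9 FPKM in serum-starved and 35.1, 32.1 and 48.7 FPKM in control cells. It was 1.72-fold lower (log2 fold change -0.74 ± 0.15; limma, Benjamini-Hochberg adjusted p = 0.00294).

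The largest fall of the family was that of Slc39a10 (gene ID 363229), ZIP10, an importer of the plasma membrane. It had 3.10, 1.97 and 2.21 FPKM in serum-starved and 9.34, 8.53 and 7.69 FPKM in control cells, 3.51-fold lower (log2 fold change -1.48 ± 0.13; limma, Benjamini-Hochberg adjusted p = 3.25e-05). Slc39a6, ZIP6, the partner with which ZIP10 can form a heteromer, had 49.2, 60.9 and 53.2 FPKM in serum-starved and 51.8, 46.9 and 71.7 FPKM in control cells. Its groups overlapped, and its log2 fold change was -0.04 ± 0.15 (limma, Benjamini-Hochberg adjusted p = 0.821). The difference was positive, at 0.15 with equal library totals and 0.11 after quantile normalization, without passing there.

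Slc39a1 (gene ID 361986), ZIP1, an abundant importer of the plasma membrane, had 139, 138 and 138 FPKM in serum-starved and 78.4, 88.7 and 93.7 FPKM in control cells. The starved libraries lay close together and above all controls (log2 fold change 0.67 ± 0.07; limma, Benjamini-Hochberg adjusted p = 0.00012). Slc39a13, ZIP13, which releases zinc from vesicles and whose loss causes a connective tissue disorder in humans and mice, fell to 87.6, 86.0 and 81.4 FPKM in serum-starved against 108, 118 and 107 FPKM in control cells (limma, Benjamini-Hochberg adjusted p = 0.00127). With these changes ZIP1 was the highest importer in serum-starved cells, while ZIP13 was the highest in control cells.

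Of the other importers, Slc39a9 and Slc39a11 rose by 0.45 and 0.27 on the log2 scale (limma, Benjamini-Hochberg adjusted p = 0.00149 and 0.0087). Slc39a3 rose by 0.41 (limma, Benjamini-Hochberg adjusted p = 0.02365), a call that was lost when either of serum-starved replicates 1 and 3, or control replicate 1, was left out, with adjusted p of 0.0594 to 0.0801 by limma, and with no filter, with 0.0516. Slc39a7, ZIP7, the importer of the endoplasmic reticulum, had 95.0, 100.6 and 96.2 FPKM in serum-starved and 88.0, 87.9 and 85.6 FPKM in control cells. Its small rise of 0.16 (limma, Benjamini-Hochberg adjusted p = 0.041) was lost when any library was left out, with adjusted p of 0.0534 to 0.119 by limma, and after median-ratio scaling, with 0.115. Slc39a5 had 2.86 to 3.17 FPKM in serum-starved and 3.01 to 3.88 FPKM in control cells and did not pass (limma, Benjamini-Hochberg adjusted p = 0.421), and Slc39a4, the intestinal importer, was at 0.12 or below.

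The deposited values were also summed over each family. The exporters together held 121, 123 and 116 FPKM in serum-starved and 121, 119 and 109 FPKM in control cells, and the importers 436, 458 and 435 FPKM in serum-starved and 400, 411 and 446 FPKM in control cells, with overlapping groups in both families. As shares of the library totals, which were lower in serum-starved cells, the groups did not overlap. With equal totals the median log2 fold change of all tested genes was 0.20, against 0.03 without that scaling, so a rise in share is not particular to these families. The exporters held 0.0256%, 0.0275% and 0.0255% of the total in serum-starved and 0.0231%, 0.0225% and 0.0208% in control cells, and the importers 0.0921%, 0.102% and 0.0953% in serum-starved and 0.0765%, 0.0775% and 0.0854% in control cells.

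**Figure D3:**
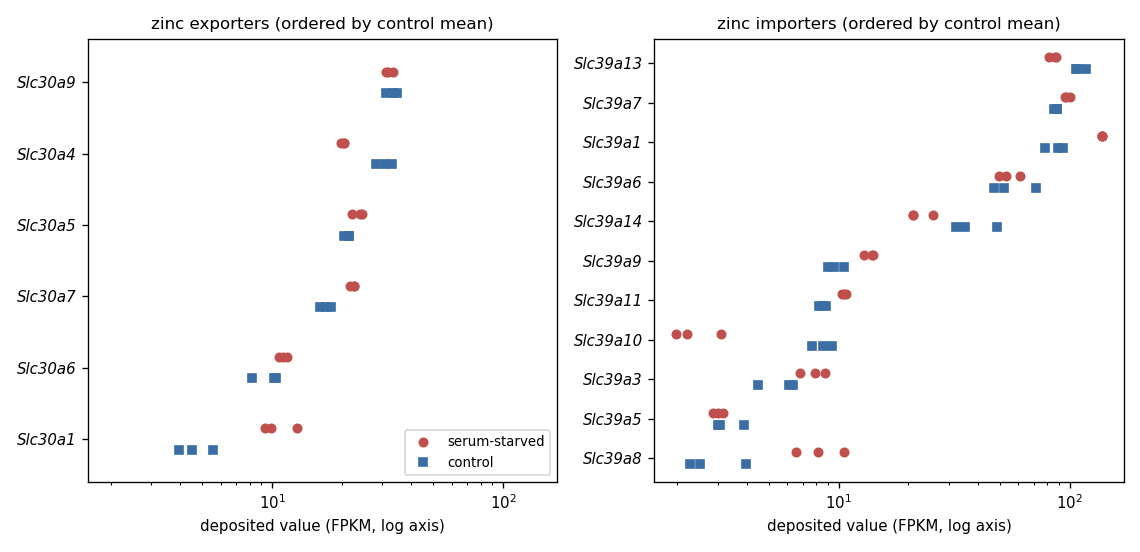
Deposited values (FPKM, log axis) of the 6 tested zinc exporters and 11 tested zinc importers in the 3 serum-starved (circles) and 3 control (squares) libraries, ordered by the control mean. Slc39a8 and Slc30a1 lie to the right and Slc39a10 and Slc39a14 to the left of their controls, while Slc30a9 and Slc39a6 overlap with theirs.

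MTF1 is a zinc-finger factor that binds metal response elements when zinc is plentiful. In mouse it is known to switch on the metallothioneins and Slc30a1 and to repress Slc39a10. The promoters of the rat metallothioneins Mt2A and Mt1 and of Slc30a1 are shown because these genes, or their mouse counterparts, are textbook targets, and their matches were known when they were chosen. Each stretch is the 250 bases before a start of the gene, 5′ to 3′ on the gene's strand, from RefSeq on the GRCr8 assembly. Matches to TGCACNC or TGCGCNC on either strand are in capitals. For a gene with several listed starts, the stretch with the most matches was kept, here and in all counts below. Mt2A lies at chr19:10838709-10838958 (minus strand), Mt1 at chr19:10832976-10833225 (minus strand) and Slc30a1 at chr13:106021769-106022018 (plus strand).
Mt2A: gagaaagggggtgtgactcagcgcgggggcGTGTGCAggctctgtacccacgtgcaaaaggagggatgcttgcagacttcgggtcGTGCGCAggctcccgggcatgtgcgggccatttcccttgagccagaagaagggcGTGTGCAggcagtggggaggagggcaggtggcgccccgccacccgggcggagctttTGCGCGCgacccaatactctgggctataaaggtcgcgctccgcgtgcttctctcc
Mt1: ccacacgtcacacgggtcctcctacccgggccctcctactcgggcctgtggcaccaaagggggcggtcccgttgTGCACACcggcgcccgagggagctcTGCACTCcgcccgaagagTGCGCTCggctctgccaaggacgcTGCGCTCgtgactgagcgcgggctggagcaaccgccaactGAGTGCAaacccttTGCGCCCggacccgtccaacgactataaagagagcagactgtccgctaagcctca
Slc30a1: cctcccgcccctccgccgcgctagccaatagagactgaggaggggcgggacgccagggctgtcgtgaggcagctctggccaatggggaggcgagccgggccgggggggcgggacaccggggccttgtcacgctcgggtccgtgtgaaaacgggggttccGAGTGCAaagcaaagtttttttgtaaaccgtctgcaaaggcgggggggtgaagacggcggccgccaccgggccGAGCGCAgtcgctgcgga
The Mt2A stretch holds 4 matches, the Mt1 stretch 6 and the Slc30a1 stretch 2, counting overlapping matches as 1. Of the 9167 tested genes with a promoter in the table, 33.1% had at least 1 match and 7.81% at least 2. At least 4 were found in 0.153%, and at least 6 in 0.0109%, which is 1 gene, Mt1 itself. Among the 34 tested members with a promoter, 15 (44.1%) had a match: 7 of 12 that rose, 6 of 9 that fell and 2 of 13 that did not pass. Untested members, which were below the filter, had a match in 4 of 6 (66.7%). All tested genes were not split in this way, so a link between a match and a change was not tested. The Slc39a10 window held 0 matches, which says only that these letters are not in these bases. A match is a description of sequence and no evidence that a factor binds there.

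Of the metallothioneins and their factor, 3 were tested, of which 2 rose and 1 fell. Mt2A (gene ID 689415) had 548, 897 and 592 FPKM in serum-starved and 279, 219 and 486 FPKM in control cells. The groups did not overlap, but control replicate 3 came close to the lowest starved library. The level was 2.07-fold higher (log2 fold change 1.10 ± 0.29; limma, Benjamini-Hochberg adjusted p = 0.0103), and 1.42 on the log2 scale without control replicate 3. Mt1 (gene ID 24567), the adjacent gene, had 250, 424 and 268 FPKM in serum-starved and 221, 193 and 344 FPKM in control cells. These groups overlapped, with a log2 fold change of 0.32 ± 0.25 (limma, Benjamini-Hochberg adjusted p = 0.291).

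Replicate 2 was the highest serum-starved library and replicate 3 the highest control library for both Mt2A and Mt1, while their ratio differed between the groups. Mt2A over Mt1 was 2.19, 2.12 and 2.21 in serum-starved and 1.27, 1.14 and 1.41 in control cells, with means of 2.17 ± 0.0494 and 1.27 ± 0.137 (SD, n = 3 each). The ranges were well apart. Control replicate 3, although high in both genes, kept a ratio nearer to the other controls than to the starved libraries, and it was the highest control. GRCr8 names 3 copies of Mt1, of which 0 have a listed value, so reads from them may be counted in Mt1 or dropped. An exact two-sided permutation test gave p = 0.1, the smallest possible. In all, 4 such ratios of related genes were compared, each chosen after their values were seen, and the Benjamini-Hochberg adjusted permutation p was 0.1 for each.

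Mtf1 (gene ID 362591) itself rose to 3.11, 3.66 and 3.14 FPKM in serum-starved against 2.18, 2.25 and 2.44 FPKM in control cells (log2 fold change 0.39 ± 0.09; limma, Benjamini-Hochberg adjusted p = 0.00688). Mt1m had 2.58, 3.00 and 2.69 FPKM in serum-starved and 6.17, 5.02 and 5.26 FPKM in control cells, a fall of 0.78 on the log2 scale (limma, Benjamini-Hochberg adjusted p = 0.000217). RefSeq lists this rat gene as a pseudogene, and reads of the far more abundant Mt1 and Mt2A could be split onto it, so its value is uncertain. Mt3, the brain metallothionein, was listed at 0.28 in serum-starved replicate 1 and at 0 in the 5 other libraries. Of 3 further zinc genes tested, Trpm7, a channel that passes zinc and magnesium, and Mtf2, which despite its name is known as a Polycomb accessory protein, rose by 0.32 and 0.47 (limma, Benjamini-Hochberg adjusted p = 0.00759 and 0.00166), and the third was Mt1.

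**Figure D4:**
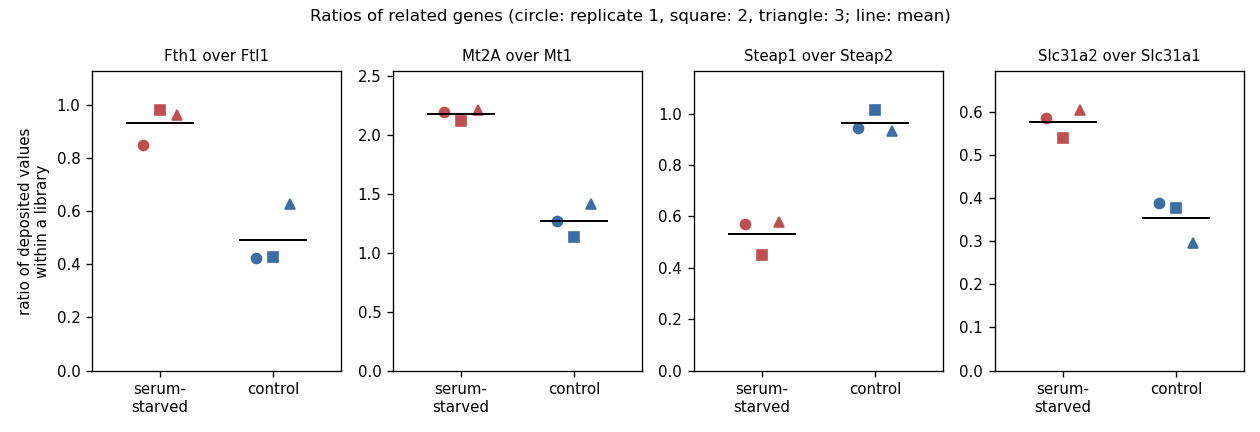
Ratio of the deposited values of 2 related genes within each library (y axis from 0) in 3 serum-starved and 3 control libraries, with marker shapes for the replicate number and lines for the group means. Fth1 over Ftl1, Mt2A over Mt1 and Slc31a2 over Slc31a1 were higher, and Steap1 over Steap2 lower, in every serum-starved library than in any control library.

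Among the copper genes, 2 of 4 tested members rose, 0 fell and 2 did not pass. Atp7a (gene ID 24941), the Menkes ATPase that pumps copper into the secretory pathway and out of the cell, had 8.37, 9.87 and 7.92 FPKM in serum-starved and 6.08, 5.55 and 5.50 FPKM in control cells. It was 1.53-fold higher without overlap (log2 fold change 0.53 ± 0.09; limma, Benjamini-Hochberg adjusted p = 0.0015). Slc31a2 (gene ID 298091), CTR2, a relative of the importer found on endosomes and lysosomes, had 10.54, 8.96 and 10.3 FPKM in serum-starved and 6.48, 6.71 and 4.67 FPKM in control cells. It was 1.67-fold higher, again without overlap (log2 fold change 0.66 ± 0.13; limma, Benjamini-Hochberg adjusted p = 0.00221).

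Slc31a1, the copper importer CTR1, had 18.0, 16.6 and 17.1 FPKM in serum-starved and 16.7, 17.8 and 15.8 FPKM in control cells, with overlapping groups (log2 fold change 0.04 ± 0.07; limma, Benjamini-Hochberg adjusted p = 0.646). With equal library totals it passed, at 0.22 (limma, adjusted p = 0.0178). The ratio of Slc31a2 to Slc31a1 was 0.587, 0.540 and 0.604 in serum-starved and 0.388, 0.378 and 0.296 in control cells (exact two-sided permutation p = 0.1). Both genes lie close together on the rat genome, with 1 protein-coding gene starting between them in the GRCr8 table. The chaperone gene Atox1 had 50.45, 37.9 and 53.7 FPKM in serum-starved and 45.2, 46.4 and 47.6 FPKM in control cells, with serum-starved replicate 2 the lowest of all (log2 fold change 0.01 ± 0.12; limma, Benjamini-Hochberg adjusted p = 0.928). Atp7b, the liver-type ATPase, was at 0.06 to 0.14 FPKM in serum-starved and 0.16 to 0.20 FPKM in control cells and was below the filter. With no filter its log2 fold change was -0.11 (limma, Benjamini-Hochberg adjusted p = 0.04898).

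Of 17 further copper genes with a row, 15 were tested, of which 4 rose, 6 fell and 5 did not pass. The lysyl oxidases, which take up copper in the secretory pathway, were divided: Lox rose, and Loxl1, Loxl2, Loxl3 and Loxl4 fell. Lox had 1311, 1238 and 1361 FPKM in serum-starved and 625, 567 and 651 FPKM in control cells (log2 fold change 1.09 ± 0.08; limma, Benjamini-Hochberg adjusted p = 1.06e-05). Loxl3 had 26.25, 23.15 and 23.7 FPKM in serum-starved and 69.7, 81.5 and 63.1 FPKM in control cells, 2.93-fold lower (limma, Benjamini-Hochberg adjusted p = 5.85e-06). Loxl4 had 4.99, 5.82 and 5.00 FPKM in serum-starved and 10.0, 11.1 and 9.59 FPKM in control cells (limma, Benjamini-Hochberg adjusted p = 8.83e-05), far below the level of Lox. Cox17, the chaperone that brings copper to mitochondrial cytochrome oxidase, fell to 38.5, 33.3 and 35.45 FPKM in serum-starved against 79.0, 76.1 and 70.4 FPKM in control cells (log2 fold change -1.05 ± 0.08; limma, Benjamini-Hochberg adjusted p = 9.61e-06).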

How the data were processed

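RNA-seq expression tables of 6 libraries were used, 3 from serum-starved and 3 from control cells, grouped by title. The deposited values are treated as FPKM, although the tables name no unit. The submitters' processing notes name bcl2fastq 2.0, HISAT2, StringTie, DESeq2 and limma, and the genome build mm10, a mouse build, although the gene IDs are those of rat. The annotation and strand handling are not given in the sources used here, and the treatment text in the labels is the same for both groups, so groups follow titles and the series design.

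From there, log2(value + 1) was tested with limma 3.58.1 in R 4.3.3 (limma-trend) over the 11493 genes with at least 1 in at least 3 libraries, with Benjamini-Hochberg adjustment over all of them and a threshold of 0.05. The fold change on this scale understates that of low genes. The test was tested on simulated data first. Fold differences in words are ratios of group means. The read depth is unknown, so no counting interval can be given. At most 0.265% of values of 5 or more were equal between any pair of libraries.

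Members and lists were chosen with earlier results of these data known. Genes named beyond the members are up to 4 tested genes with the largest difference on the log2 scale in each further list. Loxl1, Loxl2 and Flvcr2 were named after their values were seen. Alternatives were a pseudocount of 0.1, no filter, median-ratio, equal-total and quantile scaling, a replicate block and leaving out each library. Gene names, neighbours and promoters come from RefSeq, GRCr8, in which 15927 of the 17093 gene IDs were matched.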

Additional observations from a re-analysis of the deposited data

How the results depend on the processing

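Of the 27 members that changed, 23 passed in the same direction under all 12 alternatives, and Fth1, Ncoa4, Slc39a3 and Slc39a7 did not. The number changed was 25 to 31 over all alternatives and 25 to 27 over those that left out a library. Equal library totals moved the changed zinc exporters to 5, against 3. The members whose sign turned had not passed the test and did not pass after the turn. With equal totals Slc11a2 came to 0.030, Aco1 to 0.066, Slc30a9 to 0.14, Slc39a6 to 0.15 and Slc39a5 to 0.045 on the log2 scale. After quantile normalization Slc30a9 came to 0.062 and Slc39a6 to 0.11. After median-ratio scaling Slc31a1 came to -0.0014 and Atox1 to -0.029. With libraries left out, Slc39a6 ranged from -0.17 to 0.13 and Atox1 from -0.082 to 0.16. The cause was not tested. Same-numbered libraries did not deviate together (r of 0.04, -0.16 and 0.10 over genes), so the replicate numbers were not taken to pair the samples. With the replicate block 25 members changed, and Fth1 and Slc39a7 were lost (limma, adjusted p = 0.0833 and 0.0728). The ratios were added after the data were seen; because their groups do not overlap, leaving out a library cannot turn their direction and says nothing of their stability. Depth limits are unknown. Of the 9 untested members, Slc40a1 and Atp7b passed with no filter.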
